A study of Mus musculus with 24 samples.

Results

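Cell cycle and DNA replication genes were followed as a set of 52 genes, taken by symbol from a list of replication, cyclin and mitosis genes. The list was chosen with earlier results of these data known, so counts and medians over the set are descriptions. All 52 are in the deposited table of 55025 gene symbols, and all 52 were among the 20174 genes tested. The samples are 24 libraries from TCRα-/- mice, in which the receptor gene of alpha beta T cells is deleted, bearing pancreatic tumors grown from M8 organoids placed in the pancreas. Host mice received vehicle or LCL161, an oral antagonist of the inhibitor of apoptosis proteins cIAP1 and cIAP2, at 75 mg/kg by gavage, first on day 4, then at intervals of 3 days for 3 doses, and spleen and tumor were taken on day 12. From each tissue, CD45+ CD4+ and CD45+ CD8+ cells were sorted, which gives 8 groups of 3 libraries, 1 for each tissue, sort and treatment. Every group carries the same receptor deletion and the same tumor. The age of the mice is not stated. The labels do not tie a library to an animal or say whether cells were pooled, so p-values measure the spread between these libraries, which may be in part technical.

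A dividing cell copies its DNA in S phase and separates the copies in mitosis. Origins of replication are licensed when Cdc6 and Cdt1 load the MCM helicase, the fork is built from polymerases, the sliding clamp PCNA and the enzymes that join the new fragments, and ribonucleotide reductase and thymidylate synthase supply the nucleotides. Entry into S phase is driven by cyclin E and by E2F transcription factors, and entry into mitosis by cyclins A and B with Cdk1, after which the Aurora and Polo kinases, the kinetochore and the spindle take over. Resting T cells keep these genes low and raise them together when they are stimulated through their receptor or by cytokines. In bulk RNA from sorted cells, a higher share of cycling cells and more of these transcripts per cycling cell cannot be told apart.

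Many of these genes carry short promoter elements that are known to time them: E2F sites in genes of S phase, and the CHR element, often with a CCAAT box, in genes of mitosis. The sequences below are the 150 bases before the RefSeq transcription start (GRCm38.p6) of 3 S phase genes, of Cdk1 and of 2 mitosis genes, shown because they hold these elements in differing combinations. They are written 5′ to 3′ on the strand of the gene, and capitals mark matches to any of the motifs searched.
Mcm6 (chr1:128359706-128359855, minus strand): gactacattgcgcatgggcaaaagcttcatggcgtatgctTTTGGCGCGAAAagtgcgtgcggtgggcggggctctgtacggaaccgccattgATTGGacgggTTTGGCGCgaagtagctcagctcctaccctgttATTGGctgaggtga
Mcm5 (chr8:75109359-75109508, plus strand): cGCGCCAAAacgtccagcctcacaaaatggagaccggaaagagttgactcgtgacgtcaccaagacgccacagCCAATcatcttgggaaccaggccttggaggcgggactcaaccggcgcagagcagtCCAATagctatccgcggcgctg
Pcna (chr2:132253181-132253330, minus strand): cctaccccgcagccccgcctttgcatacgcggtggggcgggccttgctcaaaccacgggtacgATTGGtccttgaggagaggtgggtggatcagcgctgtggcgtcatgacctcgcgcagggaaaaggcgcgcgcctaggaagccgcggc
Cdk1 (chr10:69352913-69353062, minus strand): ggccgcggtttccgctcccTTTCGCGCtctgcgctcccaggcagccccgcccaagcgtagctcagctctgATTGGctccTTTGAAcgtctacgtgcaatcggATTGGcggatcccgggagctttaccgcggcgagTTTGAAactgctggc
Cdc20 (chr4:118437344-118437493, minus strand): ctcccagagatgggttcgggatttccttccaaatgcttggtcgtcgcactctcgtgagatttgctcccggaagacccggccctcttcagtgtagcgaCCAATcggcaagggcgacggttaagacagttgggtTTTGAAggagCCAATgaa
Kif11 (chr19:37376232-37376381, plus strand): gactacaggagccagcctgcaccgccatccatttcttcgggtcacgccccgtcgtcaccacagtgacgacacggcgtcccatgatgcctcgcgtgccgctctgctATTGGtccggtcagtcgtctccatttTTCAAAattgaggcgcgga

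The letters searched on both strands were TTTGGCGC, TTTCCCGC, TTTCGCGC and TTTGCCGC for an E2F site, TTTGAA and TTCGAA for a CHR element, and CCAAT for a CCAAT box. The Mcm6 sequence holds 3 E2F matches, beginning 110, 106 and 47 bases before the start, of which the first pair overlap each other. It also holds 2 CCAAT boxes, both read on the opposite strand as ATTGG. The Mcm5 sequence holds 1 E2F match, 149 bases before the start, and the Cdk1 sequence 1 at 131 bases beside 2 CHR elements at 71 and 15 bases. The Cdc20 and Kif11 sequences hold a CHR element at 18 and 19 bases, beside CCAAT boxes, and no E2F match. The Pcna sequence holds a CCAAT box alone. A match is a description of letters and says nothing of a factor's binding.

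Of the 52 genes, 43 had a promoter in the RefSeq table, where each window covers 250 bases before the start and 50 after it. Promoters are counted per gene, and a gene with several starts counts if any of its windows holds a match. An E2F match stood in 11 of the 43 (25.6%), against 2.6% of all 27025 genes with a promoter and 4.34% of the 11763 tested genes with one. The matches were in Cdk1, Uhrf1, Ezh2, Mcm3, Mcm5, Mcm6, Mcm7, Cdc6, Cdt1, Lig1 and Pola1. Of the 18 promoters of S phase genes, meaning genes of origin licensing, of the fork and of nucleotide supply, 8 held one (44.4%). None of the 14 promoters of mitosis genes, meaning mitotic kinases, checkpoint and anaphase genes and genes of the kinetochore and spindle, did. CHR elements stood in 10 of 14 mitosis promoters (71.4%), 4 of 18 S phase promoters (22.2%) and 17.4% of the promoters of tested genes. These shares depended on the 50 transcribed bases. With the 250 bases before the start alone, CHR elements stood in 28.6% of mitosis promoters (4 of 14) and still 22.2% of S phase promoters, and E2F matches in 27.8% of S phase promoters (5 of 18) and 16.3% of all members' promoters (7 of 43). CCAAT boxes stood in 31 of 43 (72.1%), against 42.2% of the promoters of tested genes.

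**Figure D1:**
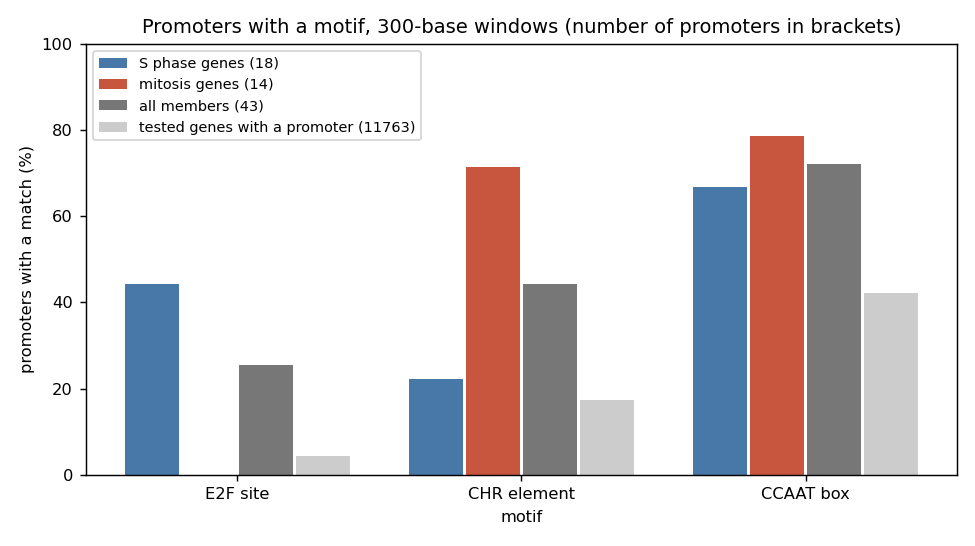
Share of promoters, counted per gene, with at least 1 match to each motif (vertical axis, percent). Bars are S phase genes, mitosis genes, all members with a promoter and all tested genes with a promoter. No replicate error applies to a count of sequences. E2F matches stood in 44.4% of S phase promoters and in none of the 14 mitosis promoters, and CHR matches in 71.4% of mitosis promoters; with only the bases before the start the S phase share of E2F matches was 27.8% and the mitosis share of CHR matches 28.6%.

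Levels are counts per 1e6 counts of the library (CPM), scaled by the TMM method, which corrects for differences in RNA composition, over library totals of 15.5 to 25.1 × 1e6 counts. Per kilobase of exon, and averaged over the 24 libraries, Mcm6 had the highest level of the 52 genes (78.9 CPM per kilobase), followed by Stmn1 at 65.7, Pcna at 63.9, Mcm4 at 53.9 and Rrm2 at 53.8. Cenpf (0.971), Cenpe (1.38) and Mcm10 (1.76) had the lowest. The gene of the proliferation antigen Ki-67, Mki67, ranked 47 of 52 at 3.29 CPM per kilobase, while Top2a, a topoisomerase that is also used as a proliferation marker, ranked 19 at 16.6. All 52 genes had counts in every library, and the lowest single value was 2.75 CPM for Cenpf in a spleen CD4 vehicle library.

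The sorted populations matched their labels for the coreceptors. Cd4 ran from 688 to 1430.4 CPM in the CD4 libraries and from 7.07 to 31.7 CPM in the CD8 libraries, and Cd8a from 564.8 to 1159 CPM in the CD8 libraries and from 0.0549 to 3.98 CPM in the CD4 libraries. Cd3e, part of the receptor complex of all T cells, lay between 514 and 1568 CPM in all 24 libraries. Trac, the constant segment of the deleted receptor chain, read 63.2 to 1082 CPM in the CD4 libraries and 9.30 to 35.5 CPM in the CD8 libraries. The counts are per gene and do not show which part of Trac the reads cover, so they do not check the deletion. Long transcripts were low against short ones, a sign of RNA quality, in tumor CD4 vehicle replicate 2, spleen CD4 LCL161 replicate 1 and spleen CD8 LCL161 replicates 3 and 2. Of 9775 genes, those of 7658 or more bases lay below those of up to 2535 bases there (difference of -0.69, -0.59, -0.44 and -0.27 on the log2 scale), and the difference ran from -0.20 to 0.32 in the other libraries.

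**Figure D2:**
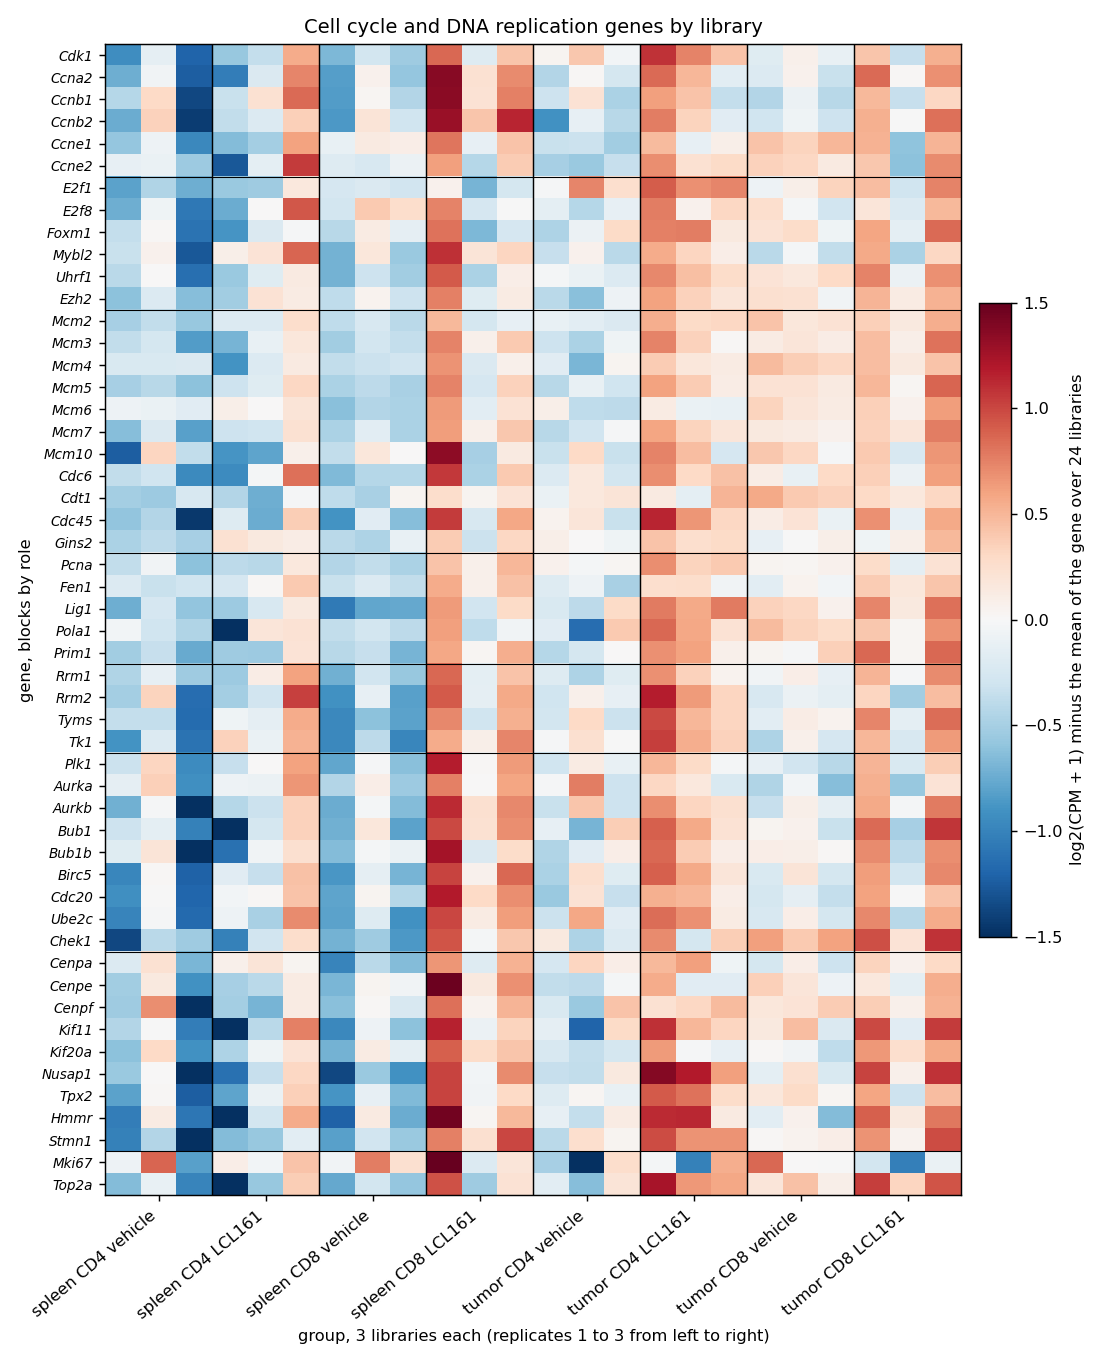
Each row is 1 of the 52 genes, in blocks by role, and each column 1 of the 24 libraries; color is log2(CPM + 1) minus the mean of that gene over all libraries (red high, blue low). Spleen CD4 vehicle replicate 3 lies below the gene mean in all 52 rows and spleen CD8 LCL161 replicate 1 above it in all 52, while Mki67 is blue in the 3 LCL161 columns of tumor CD8 cells.

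The genes rose and fell together from library to library. After the group means were taken away, the median correlation of a gene with the mean of the other 51 was 0.85 over the 24 libraries, and 37 of the 52 exceeded 0.8. The value was highest for Rrm2 (0.96), Tpx2 (0.96), Plk1 (0.96), Cdk1 (0.95) and Ccna2 (0.95), and lowest for the licensing factor Cdt1 (0.15), Gins2 (0.37) and Mki67 (0.58). All other tested genes had a median of -0.03, and 185 further genes of the same pathways one of 0.64. These values are descriptions, since all points of a library share its depth, its cells and its RNA quality. Gins2 shares 2758 bases of exon with Gse1 on the opposite strand, and the sources used here do not say whether the counting used strand. Ccnb1, Ccnb2, Pcna, Tyms and Stmn1 have named copies elsewhere in the genome, so how their reads were assigned is uncertain.

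Replicates of a group therefore differed for the whole set. The summed level of the 52 genes was 2477, 3216 and 2025 CPM under vehicle and 2504, 3012 and 4427 CPM under LCL161 in spleen CD4 cells. In spleen CD8 cells it was 2217, 2938 and 2466 CPM under vehicle and 6123, 3235 and 4576 CPM under LCL161. In both spleen populations at least 1 LCL161 library stood higher than any vehicle library of the same cells. Tumor CD4 cells gave 2965, 3088 and 3207 CPM under vehicle and 5621, 4519 and 3979.8 CPM under LCL161. Tumor CD8 cells gave 3757, 3831 and 3512 CPM under vehicle and 4991, 3396 and 5447 CPM under LCL161. The LCL161 libraries were all above the vehicle libraries in spleen CD8 and tumor CD4 cells, and the groups overlapped in spleen CD4 and tumor CD8 cells. The ratio of the group means was 1.29 in spleen CD4, 1.83 in spleen CD8, 1.52 in tumor CD4 and 1.25 in tumor CD8 cells. The SD between LCL161 libraries (836 to 1445 CPM) was larger than that between vehicle libraries (121 to 601 CPM).

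**Figure D3:**
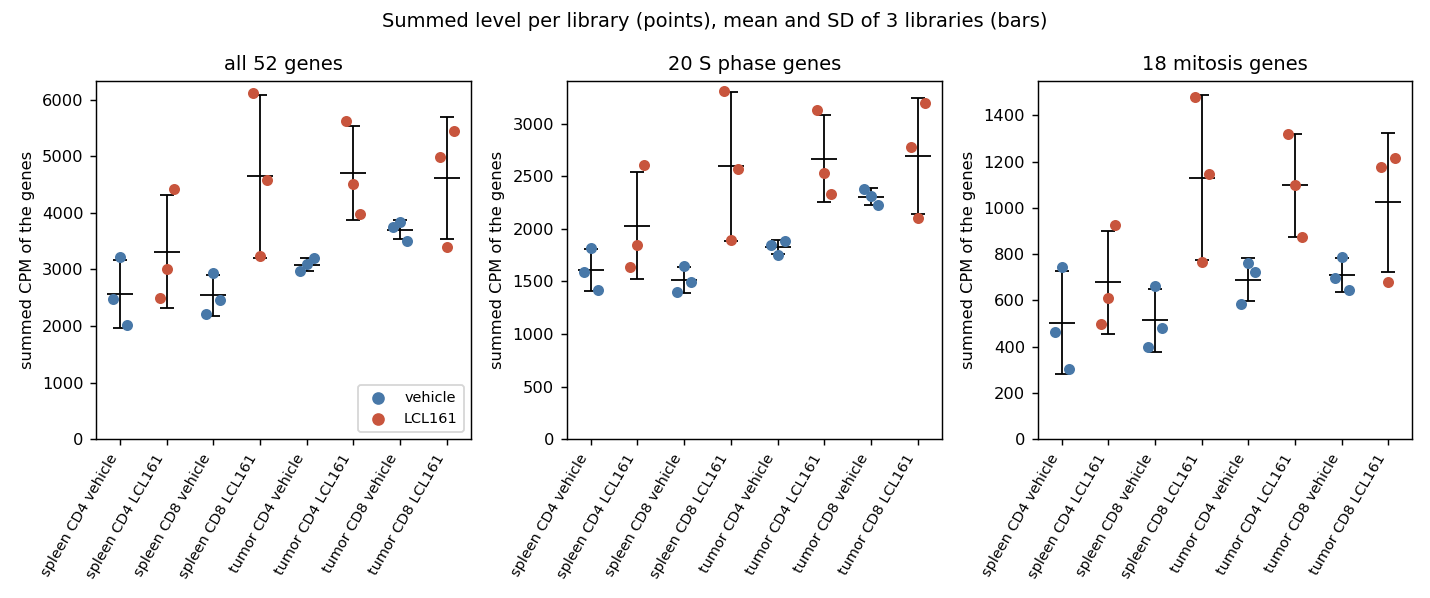
Summed CPM per library (vertical axis, from 0) of all 52 genes, of 20 S phase genes and of 18 mitosis genes in the 8 groups; points are libraries, and the horizontal and vertical bars are the mean and SD of 3 libraries. In spleen CD8 cells the 3 LCL161 libraries (3235 to 6123 CPM over all 52 genes) lie above the 3 vehicle libraries (2217 to 2938 CPM).

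The first comparison asked whether LCL161 changed these genes in spleen CD8 cells. There, 19 of the 52 genes rose and none fell, at adjusted p under 0.05 in edgeR's quasi-likelihood test with Benjamini-Hochberg adjustment over all genes tested. Of all tested genes, 4.1% rose and 4.18% fell. The median log2 fold change of the 52 genes was 0.92, against 0.06 over all genes tested, and 51 of the 52 estimates were above 0. In 31 of the 52 genes each LCL161 library exceeded each vehicle library, as did 21.1% of all genes tested, none lay wholly below (17.8% of all genes tested), and 39 had an unadjusted p under 0.05. Here and below, counts at an unadjusted p under 0.05 are given without the share of all genes tested, so they describe the 52 genes alone. Called genes came from S phase (11 of 20) and from mitosis (8 of 18). None of the 6 cyclin and Cdk1 genes, none of the 6 transcription factors and chromatin regulators, and neither Mki67 nor Top2a passed.

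Among the fork enzymes, 4 of 5 rose. Lig1, the ligase that joins Okazaki fragments, read 27.2, 33.3 and 33.6 CPM in the vehicle libraries and 90.9, 47.2 and 71.1 CPM in the LCL161 libraries, which do not overlap (log2 fold change 1.15 ± 0.24 (SE), adjusted p = 0.00852). Pcna, the sliding clamp, read 109.7, 115 and 107 CPM under vehicle and 201, 157 and 211 CPM under LCL161 (log2 fold change 0.78 ± 0.17 (SE), adjusted p = 0.0093). The 3 LCL161 libraries were above all vehicle libraries for both genes, and replicate 2 was the lowest of them. Fen1, which trims the fragments, and the primase subunit Prim1 rose by 0.69 ± 0.16 and 0.92 ± 0.26 on the log2 scale, while the polymerase Pola1 had an estimate of 0.48 ± 0.40 (adjusted p = 0.475). The exons of Fen1 share 2039 bases with Gm10143 and Tmem258, so part of its reads may belong to them.

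Of the 11 genes of origin licensing and firing, 4 rose, all of them subunits of the MCM helicase. Mcm6 read 232, 265 and 257 CPM under vehicle and 561, 320.4 and 417 CPM under LCL161 (log2 fold change 0.78 ± 0.17 (SE), adjusted p = 0.0102). Mcm7 read 103, 128 and 103 CPM under vehicle and 222, 152 and 191 CPM under LCL161 (log2 fold change 0.76 ± 0.20 (SE), adjusted p = 0.0251). In both, the lowest LCL161 library stood above the highest vehicle library. Mcm5 and Mcm3 rose by 0.79 ± 0.22 and 0.81 ± 0.23, and Mcm2, Mcm4, Mcm10, Cdc6, Cdt1, Cdc45 and Gins2 had estimates of 0.41 to 1.14 that did not pass. The promoters of Mcm3, Mcm5, Mcm6 and Mcm7, which passed, each hold an E2F match, while Cdt1 and Cdc6, whose promoters hold one too, did not pass (adjusted p = 0.148 and 0.104). Outside this role, Lig1 passed with a match, and Cdk1, Uhrf1, Ezh2 and Pola1 did not pass with one. Pcna, Tk1 and Tyms, among others, passed without a match.

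Nucleotide supply gave 3 of 4. Tk1, thymidine kinase, read 14.6, 22.3 and 14.5 CPM under vehicle and 43.9, 31.3 and 49.6 CPM under LCL161 (log2 fold change 1.28 ± 0.29 (SE), adjusted p = 0.0115). Tyms, thymidylate synthase, read 23.7, 30.4 and 26.8 CPM under vehicle and 78.7, 38.4 and 69.02 CPM under LCL161 (log2 fold change 1.20 ± 0.31 (SE), adjusted p = 0.023). Each LCL161 library was above each vehicle library in both genes. Rrm1, the large subunit of ribonucleotide reductase, rose by 0.96 ± 0.27. Its small subunit Rrm2 had an estimate of similar size but a wider error (1.10 ± 0.41, adjusted p = 0.104), with LCL161 replicate 2 at the level of the highest vehicle library.

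Among mitotic kinases, checkpoint and anaphase genes, 5 of 9 rose: Cdc20, Chek1, Birc5, Plk1 and Aurkb. Cdc20, which activates the ligase that starts anaphase, read 26.2, 47.6 and 34.04 CPM under vehicle and 106, 56.8 and 75.1 CPM under LCL161 (log2 fold change 1.14 ± 0.31 (SE), adjusted p = 0.0288). Chek1, the kinase that halts the cycle when replication stalls, read 5.45, 6.30 and 4.80 CPM under vehicle and 19.3, 9.37 and 12.96 CPM under LCL161 (log2 fold change 1.33 ± 0.38 (SE), adjusted p = 0.0374). Neither gene's groups overlap, and LCL161 replicate 1 was the highest for both. Birc5 (survivin) and Aurkb, partners in the chromosomal passenger complex, rose by 1.25 ± 0.36 and 1.20 ± 0.35, and the Polo kinase Plk1 by 1.16 ± 0.34. Ube2c, which works with the same ligase, just missed the threshold at 1.25 ± 0.39 (adjusted p = 0.0518).

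Of 9 kinetochore, spindle and microtubule genes, Stmn1, Cenpa and Nusap1 rose. Stmn1, a microtubule-destabilizing protein, read 64.4, 93.2 and 77.2 CPM under vehicle and 193, 135 and 229 CPM under LCL161 (log2 fold change 1.25 ± 0.27 (SE), adjusted p = 0.0102). Cenpa, the histone variant of centromeres, read 29.7, 44.9 and 37.7 CPM under vehicle and 95.9, 52.2 and 86.7 CPM under LCL161 (log2 fold change 1.06 ± 0.25 (SE), adjusted p = 0.0148). Both were lowest in LCL161 replicate 2 among the treated libraries and overlapped in no library. Nusap1, a spindle protein, had the largest estimate of the 52 genes in this comparison, 1.57 ± 0.43.

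The cyclins did not pass although their estimates were as large. Ccnb2 read 29.9, 62.9 and 44.5 CPM under vehicle and 136, 73.4 and 123 CPM under LCL161 (log2 fold change 1.27 ± 0.39 (SE), adjusted p = 0.052), and Ccna2 read 51.8, 96.5 and 61.5 CPM under vehicle and 239, 109 and 151 CPM under LCL161 (log2 fold change 1.25 ± 0.41 (SE), adjusted p = 0.0654). Ccnb1 read 18.2, 33.9 and 24.2 CPM under vehicle and 86.3, 38.6 and 56.8 CPM under LCL161 (adjusted p = 0.0661). Cdk1, their kinase, read 30.5, 40.6 and 33.7 CPM under vehicle and 89.8, 42.99 and 65.7 CPM under LCL161 (log2 fold change 0.92 ± 0.33 (SE), adjusted p = 0.0905). All 4 had no overlap between the groups, and LCL161 replicate 2 stood only slightly above the highest vehicle library. The cyclin of S phase entry behaved differently from these: Ccne1 read 20.9, 25.05 and 24.4 CPM under vehicle and 40.1, 20.7 and 30.8 CPM under LCL161, with overlap (log2 fold change 0.38 ± 0.34 (SE), adjusted p = 0.51).

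The 6 transcription factors and chromatin regulators had a lower median estimate, 0.37, than the set. Uhrf1, which maintains DNA methylation at the fork, read 55.3, 73.4 and 63.02 CPM under vehicle and 173, 64.99 and 97.98 CPM under LCL161 (log2 fold change 0.81 ± 0.31 (SE), adjusted p = 0.107). The LCL161 and vehicle values overlap. Mybl2, a factor of the complex that acts on mitosis genes, read 8.33, 16.2 and 9.36 CPM under vehicle and 31.5, 16.4 and 18.1 CPM under LCL161 (log2 fold change 0.96 ± 0.37 (SE), adjusted p = 0.11). E2f1 read 23.2, 23.9 and 22.6 CPM under vehicle and 29.2, 16.8 and 23.1 CPM under LCL161, an estimate of -0.01 ± 0.26. Among the 52 genes E2f1 was the one with an estimate below 0 here, and E2f8 (0.08 ± 0.39) and Foxm1 (0.24 ± 0.38) lay close to 0. Of the chromosome proteins, Top2a read 77.9, 109 and 88.8 CPM under vehicle and 259, 91.8 and 155 CPM under LCL161 (log2 fold change 0.87 ± 0.43 (SE), adjusted p = 0.221), and Mki67 read 28.3, 51.1 and 34.9 CPM under vehicle and 92.8, 25.4 and 33.6 CPM under LCL161 (log2 fold change 0.41 ± 0.55 (SE), adjusted p = 0.68). The vehicle and LCL161 ranges overlap in both. LCL161 replicates 1 and 3 lay above all vehicle libraries for Top2a, and replicate 1 alone for Mki67.

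**Figure D4:**
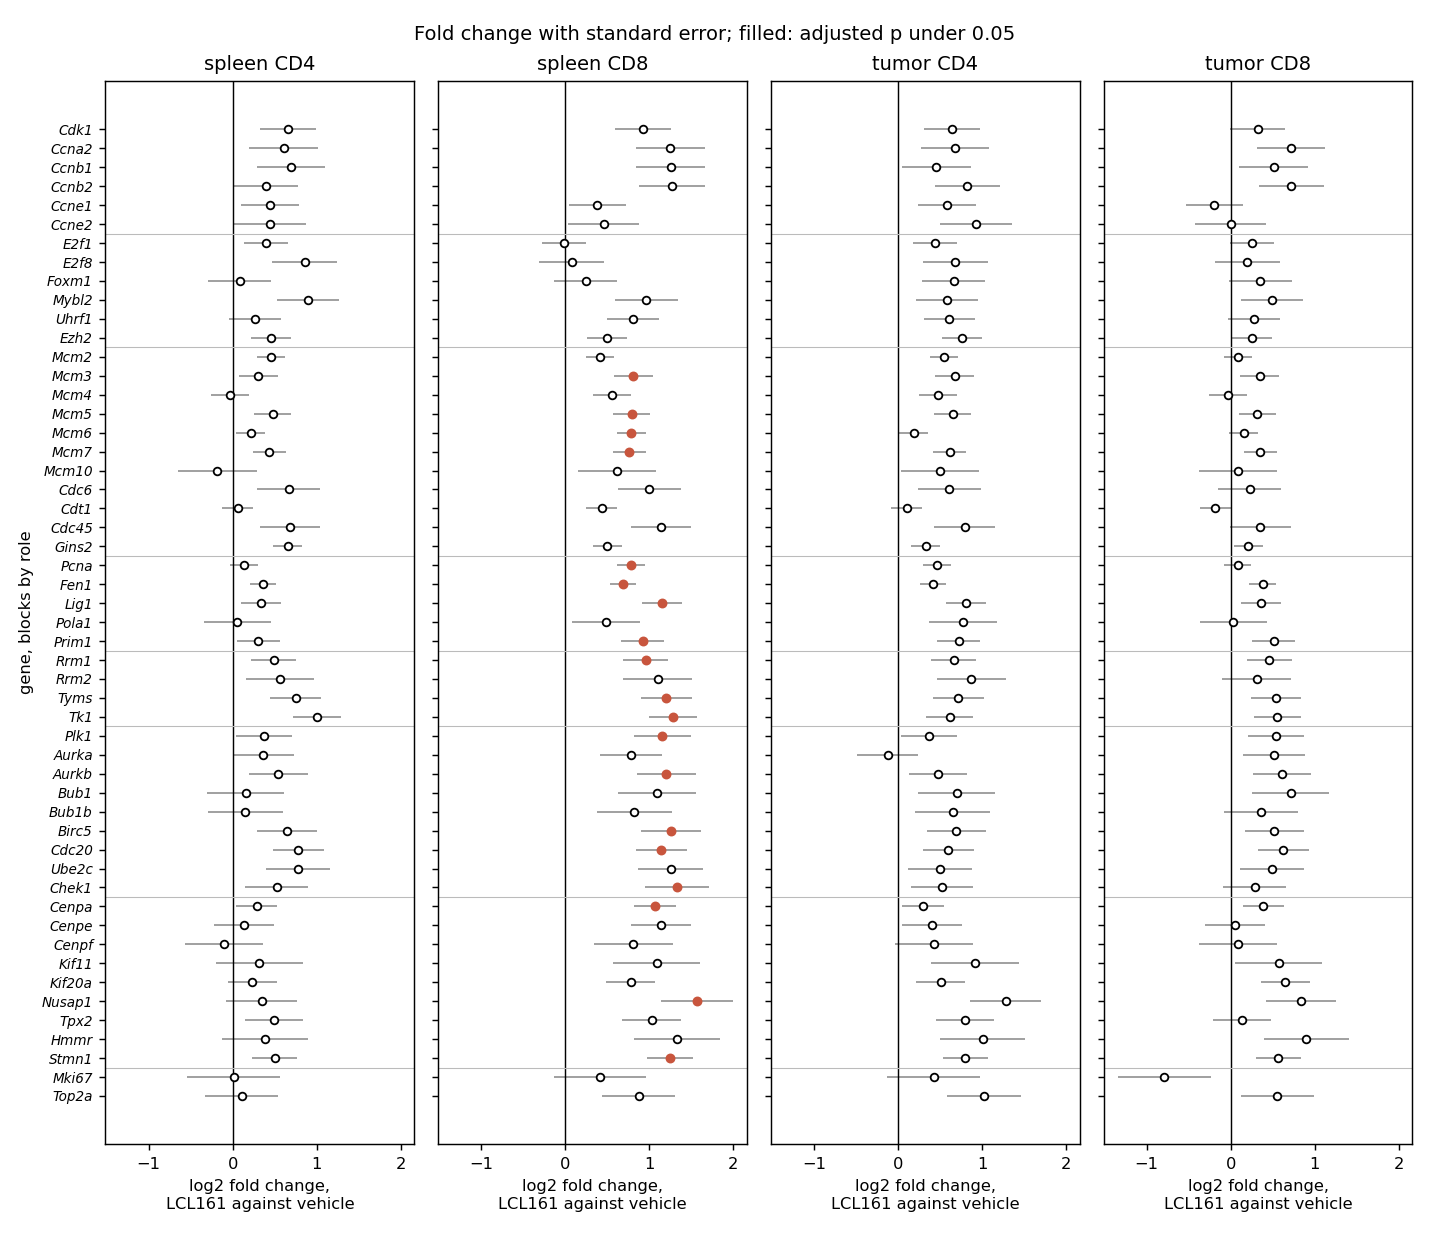
Log2 fold change of LCL161 against vehicle (horizontal axis) with its standard error for each of the 52 genes (rows, in blocks by role) in the 4 sorted populations, 3 libraries against 3; filled points have an adjusted p under 0.05 over all genes tested. The 19 filled points are all in spleen CD8 cells, and most open points in the other 3 populations lie right of 0.

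The count of 19 depended on single libraries, as did the count over all genes tested. Leaving out vehicle replicate 1 or LCL161 replicate 3 left 0 of the 52 genes past the threshold, vehicle replicate 3 left 2, LCL161 replicate 1 left 4 and vehicle replicate 2 left 12, while leaving out LCL161 replicate 2 gave 25. Over all genes, 827 of 20174 rose with all libraries. Without vehicle replicate 1, 142 of 20901 rose, without replicate 2, 351 of 20900, and without replicate 3, 175 of 20949. Without LCL161 replicate 1, 645 of 20954 rose, without replicate 2, 564 of 20940, and without replicate 3, 70 of 20942. The median log2 fold change stayed between 0.60 and 1.13 over these 6 fits, and it was lowest without LCL161 replicate 1. Without a filter on low counts 8 of the 52 genes passed, and 345 of all 34988 genes tested then rose. LCL161 replicate 3, and to a lesser degree replicate 2, had low long transcripts. The log2 difference of long from short transcripts was 0.22, 0.22 and 0.26 under vehicle and 0.08, -0.27 and -0.44 under LCL161, without overlap. Of the longest members, Rrm1 is among the 19. Mki67 (10061 bases), Top2a (9013 bases), Cenpf, Pola1, Cenpe, Mcm10, Kif11, Mcm2 and Ezh2 are not. Of the shortest, Cdc20, Stmn1, Plk1, Pcna and Fen1 are among the 19, and Ccnb2, Aurka, Ube2c, Ccne1 and Rrm2 are not. Beyond removing the trend, the part of length was not tested. With the trend on transcript length removed, 15 genes passed, 13 of them among the 19. DESeq2 called 26, which include all 19.

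Markers of another cell type moved with this result. The summed level of 10 conventional dendritic cell markers, all of which reached 1 CPM, was 3196, 3571 and 3184 CPM under vehicle and 464, 1637 and 910.2 CPM under LCL161. The markers were lower in every LCL161 library, and their order among the 3 LCL161 libraries was the reverse of that of the 52 genes. The defining genes were far from 0: Xcr1 read 347.9, 363.9 and 327 CPM under vehicle and 18.5, 126 and 68.8 CPM under LCL161. T cell markers read 3758, 3268 and 3662 CPM under vehicle and 4725, 4363 and 5419 CPM under LCL161, and gamma delta T cell markers 1365, 1406 and 1501 CPM under vehicle and 2144, 1994 and 2739.7 CPM under LCL161, both higher in each LCL161 library. Divided by the T cell marker sum, the sum of the 52 genes was 0.59, 0.899 and 0.673 with vehicle and 1.30, 0.741 and 0.844 with LCL161. These ratios overlap, since vehicle replicate 2 exceeded LCL161 replicates 2 and 3. Natural killer cell markers went from a range of 568 to 1054 CPM to one of 1172 to 2262 CPM, germinal center B and plasma cell markers went from 702 to 1226 CPM to 323 to 672 CPM, and erythroid markers from 513 to 1736 CPM to 148 to 547 CPM. How much of the rise in the 52 genes goes with the change in the cells sorted was not tested.

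**Figure D5:**
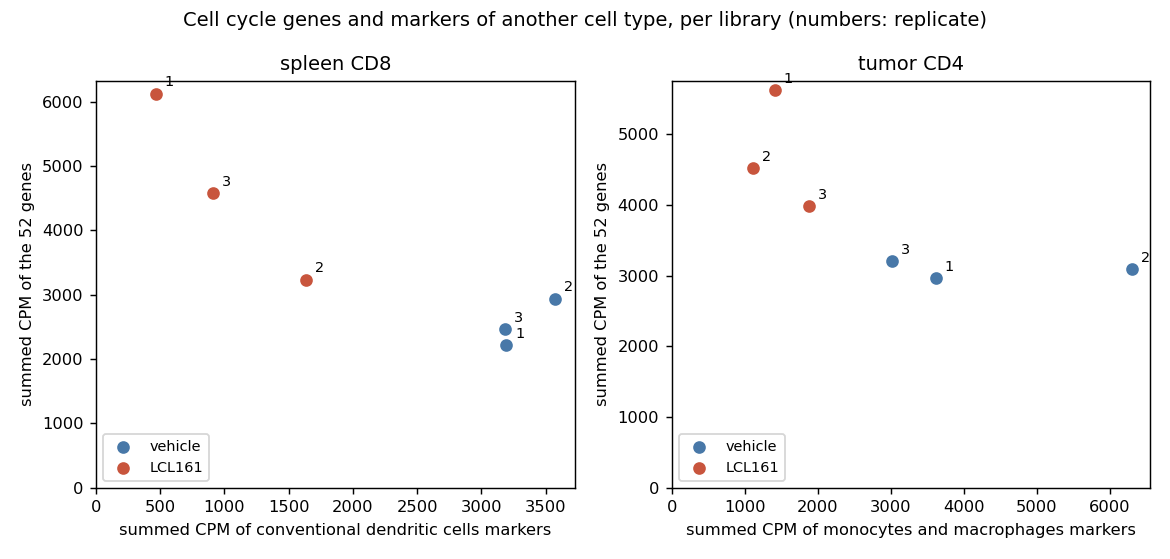
Summed CPM of the 52 genes (vertical axis) against the summed CPM of markers of another cell type (horizontal axis), 1 point per library with its replicate number: dendritic cell markers in spleen CD8 cells and macrophage markers in tumor CD4 cells. In both panels the 3 LCL161 libraries have the lower marker sums and the higher sums of the 52 genes.

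In tumor CD4 cells, none of the 52 genes passed the threshold in edgeR's test, although 51 of 52 estimates were above 0. Of all tested genes 0.114% rose there and 0.208% fell. The median log2 fold change was 0.61 (-0.01 over all genes tested), 20 genes had an unadjusted p under 0.05, and DESeq2 called 1. Over all 17025 genes it tested there, DESeq2 called 231 as higher and 505 as lower. In 30 of the 52 genes each LCL161 library exceeded each vehicle library, as did 7.19% of all genes tested, and in none was each below (8.09% of all genes tested). By role these were 4 of 4 genes of nucleotide supply, 4 of 5 of the fork, 8 of 11 of origin licensing, 6 of 9 of the kinetochore, spindle and microtubules, 4 of 6 transcription factors and chromatin regulators, 3 of 6 cyclins with their kinase, 1 of 2 chromosome structure genes and none of 9 mitotic kinase, checkpoint and anaphase genes. The smallest adjusted p was that of Lig1, at 0.132.

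Pcna read 156, 146 and 152 CPM under vehicle and 243, 188 and 196 CPM under LCL161, and the lowest LCL161 value stood above the highest vehicle value (log2 fold change 0.47 ± 0.17 (SE), adjusted p = 0.2). Tk1 read 29.02, 34.9 and 29.3 CPM under vehicle and 61.5, 43.3 and 37.7 CPM under LCL161, also without overlap (log2 fold change 0.61 ± 0.28 (SE), adjusted p = 0.339). Stmn1 read 85.7, 136 and 117 CPM under vehicle and 225, 183 and 182 CPM under LCL161 (log2 fold change 0.80 ± 0.27 (SE), adjusted p = 0.177). These 3 genes are separated by group and none passes after adjustment. Top2a read 119, 84.7 and 152 CPM under vehicle and 314, 209 and 198.7 CPM under LCL161, without overlap. Cdk1 read 50.5, 65.3 and 47.9 CPM under vehicle and 106, 82.8 and 66.6 CPM under LCL161, without overlap by a small margin. Ccne1 read 17.8, 17.9 and 15.5 CPM under vehicle and 31.8, 20.8 and 24.03 CPM under LCL161, also apart. In the other 4 genes of the panel the groups overlapped. Mcm6 read 380.4, 276 and 274 CPM under vehicle and 390.2, 336 and 332 CPM under LCL161. Ccnb1 read 26.6, 38.8 and 23.6 CPM under vehicle and 51.5, 44.97 and 25.7 CPM under LCL161. E2f1 read 27.6, 47.00 and 33.4 CPM under vehicle and 53.4, 45.6 and 47.1 CPM under LCL161. Vehicle replicate 1 was high for Mcm6, and vehicle replicate 2 for Ccnb1 and E2f1. Mki67 read 20.6, 8.15 and 35.5 CPM under vehicle and 28.8, 14.1 and 43.4 CPM under LCL161, and its spread within each group was larger than the difference between them.

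Macrophage markers were lower with LCL161 in tumor CD4 cells, at 3616, 6299.7 and 3019.7 CPM under vehicle and 1411, 1108 and 1885 CPM under LCL161. All 11 markers of that list reached 1 CPM. T cell markers read 6643, 5736 and 7516 CPM under vehicle and 8327, 7899 and 7194 CPM under LCL161. Divided by the T cell marker sum, the sum of the 52 genes was 0.446, 0.538 and 0.427 with vehicle and 0.675, 0.572 and 0.553 with LCL161, which do not overlap. Vehicle replicate 2 had the lowest long transcripts of all 24 libraries, and in it the 10 longest of the 52 genes stood at a median of -0.35 from their group means and the 10 shortest at 0.26 (log2). Erythroid markers read 297, 391 and 235 CPM under vehicle and 103, 177 and 70.8 CPM under LCL161, and neutrophil markers 184, 158 and 131 CPM under vehicle and 99.2, 93.5 and 103 CPM under LCL161, both lower with LCL161 without overlap. The part of these markers or of transcript length in the differences of tumor CD4 cells was not tested.

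Spleen CD4 cells gave 0 of 52 genes past the threshold in edgeR's test, where 0.238% of all tested genes rose and 0.193% fell. Unadjusted p was under 0.05 for 10 genes, DESeq2 called 2, 49 estimates were above 0 and the median log2 fold change was 0.40 (0.02 over all genes tested). Over all 16634 genes it tested there, DESeq2 called 307 as higher and 341 as lower. The groups did not overlap for 7 genes (7.7% of all tested genes were so), namely Mybl2, Mcm2, Mcm5, Mcm6, Gins2, Tyms and Tk1, and no gene was apart and lower (6.91% of all tested genes were). The smallest adjusted p was that of Gins2 (0.094), a subunit of the GINS complex of the helicase. Tk1 read 15.3, 25.3 and 13.1 CPM under vehicle and 37.8, 27.5 and 42.6 CPM under LCL161 (log2 fold change 1.01 ± 0.29 (SE), adjusted p = 0.114), and Mcm6 read 339, 335 and 320.1 CPM under vehicle and 383, 361 and 412 CPM under LCL161 (log2 fold change 0.22 ± 0.17 (SE), adjusted p = 0.543).

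In the other 8 genes of the panel the spleen CD4 groups overlapped, and vehicle replicate 2 was the highest vehicle library in each. Cdk1 read 25.3, 44.8 and 20.8 CPM under vehicle and 32.7, 38.2 and 72.5 CPM under LCL161. Ccnb1 read 24.5, 41.1 and 12.2 CPM under vehicle and 26.1, 39.2 and 60.7 CPM under LCL161. Top2a read 84.6, 123 and 66.3 CPM under vehicle and 33.7, 88.97 and 172 CPM under LCL161. In these 3 genes LCL161 replicate 3 was the highest of the 6 libraries. Pcna read 115, 144 and 97.1 CPM under vehicle and 113, 111 and 167 CPM under LCL161. Stmn1 read 55.9, 83.9 and 37.5 CPM under vehicle and 72.1, 76.5 and 102 CPM under LCL161. The same library led in both. It also led for Ccne1, which read 14.8, 21.5 and 11.1 CPM under vehicle and 14.1, 15.5 and 34.8 CPM under LCL161, and for E2f1. The latter read 15.5, 20.2 and 16.4 CPM under vehicle and 18.6, 18.98 and 31.2 CPM under LCL161. Mki67 was the exception, at 27.98, 54.9 and 16.3 CPM under vehicle and 31.6, 28.5 and 40.1 CPM under LCL161, with its highest value in vehicle replicate 2.

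LCL161 replicate 3 of spleen CD4 cells also had the most erythroid and neutrophil transcripts. Erythroid markers, of which 11 were in the table and reached 1 CPM, read 3895, 299 and 2412 CPM under vehicle and 229, 598 and 12156 CPM under LCL161, and neutrophil markers 65.9, 72.1 and 674 CPM under vehicle and 257, 1029 and 2613 CPM under LCL161. Gamma delta T cell markers were lower with LCL161 without overlap, at 967, 301 and 1712 CPM under vehicle and 77.1, 189 and 108 CPM under LCL161. Divided by the T cell marker sum, the sum of the 52 genes was 0.384, 0.421 and 0.429 with vehicle and 0.257, 0.349 and 0.633 with LCL161, with means of 0.412 and 0.413. LCL161 replicate 3 lay above all vehicle libraries and the other 2 below them. The part of these markers in the summed level of the 52 genes was not tested. Without LCL161 replicate 3 the median log2 fold change of the 52 genes was the lowest of the 6 fits that leave out 1 library, at 0.10, and without vehicle replicate 2 it was the highest, at 0.65, with 1 gene called. Of all 20937 genes tested in the latter fit, 83 rose and 137 fell.

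In tumor CD8 cells, 0 of 52 genes passed in edgeR's test (0.233% of all tested genes rose and 0.0149% fell), DESeq2 called 0, and 2 genes, Fen1 and Kif20a, had an unadjusted p under 0.05. Over all 12731 genes it tested there, DESeq2 called 181 as higher and 152 as lower. The median log2 fold change was 0.35 (0.0031 over all genes tested), and 48 estimates were above 0. Groups were apart and higher with LCL161 for 6 genes, Ccnb2, Mcm7, Fen1, Cdc20, Kif20a and Hmmr (11.7% of all tested genes were so, which is near the share of the 52), and apart and lower for Cdt1 and Mki67 (11.9% of all tested genes). LCL161 replicate 2 stood low in most genes, and the other 2 LCL161 libraries stood high. Kif20a shares 1271 bases of exon with Cdc23.

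Mki67 was among the 4 genes with an estimate below 0 in these cells. It read 54.4, 29.6 and 29.4 CPM under vehicle and 24.1, 13.99 and 27.4 CPM under LCL161, every LCL161 library below every vehicle library (log2 fold change -0.79 ± 0.56 (SE), adjusted p = 0.664). Top2a in the same libraries read 151, 180.4 and 142 CPM under vehicle and 273, 166 and 257 CPM under LCL161. Top2a was higher in 2 of the 3 LCL161 libraries while Mki67 was lower in all 3. Cdk1 read 43.4, 51.8 and 45.4 CPM under vehicle and 65.7, 38.5 and 71.5 CPM under LCL161. Ccnb1 read 24.3, 31.3 and 24.7 CPM under vehicle and 46.9, 25.96 and 41.5 CPM under LCL161. Stmn1 read 116, 118 and 122 CPM under vehicle and 183, 119 and 225 CPM under LCL161. Each of these had LCL161 replicates 1 and 3 above all vehicle libraries and replicate 2 within or below their range. Tk1 was similar, at 21.1, 31.1 and 24.7 CPM under vehicle and 41.9, 24.9 and 46.2 CPM under LCL161. In the last 4 genes of the panel LCL161 replicate 2 lay below all vehicle libraries. Pcna read 154, 152 and 156 CPM under vehicle and 180.0, 134 and 174 CPM under LCL161. Mcm6 read 452, 406 and 392 CPM under vehicle and 461, 376 and 553 CPM under LCL161. Replicates 1 and 3 lay above all vehicle libraries in both. E2f1 read 26.3, 29.6 and 35.3 CPM under vehicle and 38.9, 22.5 and 47.4 CPM under LCL161. Ccne1 read 30.8, 28.9 and 32.3 CPM under vehicle and 33.05, 14.6 and 32.6 CPM under LCL161. Its mean was lower with LCL161, at 26.7 CPM against 30.7 CPM under vehicle.

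Divided by the T cell marker sum, the sum of the 52 genes in tumor CD8 cells was 0.554, 0.664 and 0.586 with vehicle and 0.82, 0.564 and 0.843 with LCL161. Macrophage markers were lower here too, at 1808, 2334 and 2200.2 CPM under vehicle and 927, 1188 and 928 CPM under LCL161. Their order across the LCL161 libraries had its highest value in replicate 2, which had the lowest sum of the 52 genes. The part of these markers in the result was not tested.

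Over the 4 populations, 44 of the 52 genes had estimates above 0 in all 4, 7 in 3 and 1 in 2. Groups were apart and higher with LCL161 in 3 populations for 7 genes, in 2 for 16, in 1 for 21 and in none for 8. Neither count over populations was made for all genes tested, so both describe the 52 genes alone. Within a single population, the share of all genes tested that was apart and higher ran from 7.19% (tumor, CD4) to 21.1% (spleen, CD8). Mitosis genes had larger ratios of summed level than S phase genes in each population: 1.35 against 1.26 in spleen CD4, 2.20 against 1.71 in spleen CD8, 1.59 against 1.46 in tumor CD4 and 1.44 against 1.17 in tumor CD8 cells. Sums are carried by the genes of high level, and the median log2 fold change per gene was not larger in mitosis genes throughout: 0.37 against 0.40 in spleen CD4, 1.14 against 0.79 in spleen CD8, 0.56 against 0.61 in tumor CD4 and 0.53 against 0.31 in tumor CD8 cells, mitosis against S phase. The summed S phase level divided by the summed mitosis level was 3.53, 2.48 and 3.09 with vehicle and 2.24, 2.47 and 2.24 with LCL161 in spleen CD8 cells. These groups nearly touched, at 2.48 and 2.47, without overlap, and they overlapped in the other 3 populations.

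Whether the effect of LCL161 differed between tissues or populations was tested by the difference of the effects. None of the 52 genes passed in any of the 4 differences by edgeR or DESeq2. Of all tested genes, 0.0248% passed as higher and none as lower in CD8 cells (tumor minus spleen), 0.0595% as higher in the spleen (CD8 minus CD4), none as higher and 0.00991% as lower in CD4 cells (tumor minus spleen), and none between CD8 and CD4 cells of the tumor. In CD8 cells the effect in tumor minus that in spleen had a median of -0.54 over the 52 genes, was above 0 for 3 of them, and had an unadjusted p under 0.05 for 5. Pcna had the smallest adjusted p there (-0.70 ± 0.23, adjusted p = 0.382), followed by Mcm6 (-0.63 ± 0.24, 0.451). In the spleen, the effect in CD8 minus that in CD4 cells had a median of 0.54 and an unadjusted p under 0.05 for 4 genes, among them Pcna (0.64 ± 0.23, adjusted p = 0.263) and Lig1 (0.82 ± 0.34, adjusted p = 0.333). Of all tested genes 0.233% passed as lower in that difference. The other differences had medians of 0.18 (CD4, tumor minus spleen) and -0.29 (tumor, CD8 minus CD4) and no gene with an unadjusted p under 0.05. So the 19 calls in spleen CD8 cells are not shown to be particular to them.

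In vehicle libraries, tumor cells were compared with spleen cells of the same sort. In CD8 cells 6 of 52 genes were higher in tumor and none lower, beside 7.95% of all tested genes that were higher and 6.86% that were lower, and 29 genes were apart and higher, beside 25.5% of all tested genes. The share of the 52 genes past the threshold is near the background. The 6 are Lig1, Mcm6, Cdt1, Mcm2, Chek1 and Mcm4, of which 4 belong to origin licensing and firing. Lig1 read 27.2, 33.3 and 33.6 CPM in spleen and 73.9, 71.9 and 60.9 CPM in tumor (log2 fold change 1.13 ± 0.24 (SE), adjusted p = 0.00349). Mcm6 read 232, 265 and 257 CPM in spleen and 452, 406 and 392 CPM in tumor (log2 fold change 0.73 ± 0.17 (SE), adjusted p = 0.00692). The spleen and tumor values do not overlap in either gene. Cdt1, Mcm2 and Chek1 were higher by 0.71 ± 0.18, 0.62 ± 0.17 and 1.38 ± 0.38 on the log2 scale. The spleen side of this comparison holds the dendritic cell markers given above, at 3184 to 3571 CPM against 366 to 468 CPM in tumor. B cell markers were higher in spleen too (797 to 988 CPM against 36.2 to 64.7 CPM), and markers of T cells (3268 to 3758 CPM against 5769.5 to 6779 CPM), gamma delta T cells (1365 to 1501 CPM against 2936 to 3394 CPM) and macrophages (272 to 437 CPM against 1808 to 2334 CPM) were higher in tumor. Divided by the T cell marker sum, the sum of the 52 genes was lower in tumor on average, at 0.59, 0.899 and 0.673 in spleen (mean 0.721) and 0.554, 0.664 and 0.586 in tumor (mean 0.601), with overlap. The part of these markers in the result was not tested. Without spleen CD8 vehicle replicate 1 or tumor CD8 vehicle replicate 1, 2 of the 52 genes passed, and without spleen CD8 vehicle replicate 3, 3 passed. Over all genes, 967 to 1182 were higher in tumor with 1 library left out, and 1603 with all libraries. The spleen CD8 vehicle libraries are also the controls of the LCL161 comparison above. With LCL161 libraries in place of vehicle libraries none passed and the median log2 fold change was -0.07. Of all 20174 genes tested, 992 were then higher in tumor and 778 lower, against 1603 and 1383 with vehicle libraries. With only the libraries compared in the fit, 22 of the 52 passed, as did 2871 of all 17749 genes tested there.

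In CD4 cells 2 of 52 genes were higher in tumor, against 9.61% of all tested genes, a smaller share than the background, none was lower (6.78% of all tested genes), and 12 were apart and higher, against 17.0%. E2f1 read 15.5, 20.2 and 16.4 CPM in spleen and 27.6, 47.00 and 33.4 CPM in tumor (log2 fold change 1.05 ± 0.26 (SE), adjusted p = 0.0114). Stmn1 read 55.9, 83.9 and 37.5 CPM in spleen and 85.7, 136 and 117 CPM in tumor (log2 fold change 0.93 ± 0.27 (SE), adjusted p = 0.0255). Every tumor library exceeded every spleen library in both. Gins2 (0.50 ± 0.17), Cdt1 (0.52 ± 0.18) and Tk1 (0.79 ± 0.29) followed with adjusted p of 0.0551, 0.0596 and 0.0639. Without spleen CD4 vehicle replicate 1 or 3, or tumor CD4 vehicle replicate 2, none passed, without tumor CD4 vehicle replicate 3 1 passed, and without spleen CD4 vehicle replicate 2 4 passed. Over all genes, 1079 to 1932 were higher in tumor with 1 library left out, and 1939 with all libraries. Macrophage markers were higher in tumor, at 3019.7 to 6299.7 CPM against 387 to 461 CPM in spleen, and B cell markers lower, at 37.8 to 285 CPM against 897 to 2288 CPM. Their part was not tested.

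Between CD8 cells and CD4 cells of vehicle mice, none of the 52 genes passed edgeR's test or DESeq2's. In the spleen, where 5.32% of all tested genes were higher and 6.09% lower in CD8 cells, 1 gene had an unadjusted p under 0.05: Mcm6, lower in CD8 cells (log2 fold change -0.40 ± 0.17 (SE), adjusted p = 0.144). It was followed by Cenpa (-0.50 ± 0.25), E2f8 (0.78 ± 0.39), Ccne1 (0.57 ± 0.34) and E2f1 (0.42 ± 0.26), the last 3 estimated higher. In the tumor, where 1.7% of all tested genes were higher and 2.37% lower in CD8 cells, 6 had an unadjusted p under 0.05, and 13 were apart and higher in CD8 cells, beside 12.0% of all tested genes. The 5 with the smallest adjusted p were Mcm4 (log2 fold change 0.63 ± 0.23 (SE), adjusted p = 0.133), Mcm2 (0.44 ± 0.17), Mcm6 (0.43 ± 0.17), Ccne1 (0.84 ± 0.34) and Ezh2 (0.51 ± 0.24), a histone methyltransferase. With LCL161 libraries in place of vehicle libraries, 4 of the 52 genes were higher in CD8 cells of the spleen, a share near that of all tested genes (1603 of 20174).

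Further genes of the same pathways, 185 in 12 lists and none of them among the 52, gave the same picture by count. These lists too were chosen with earlier results of these data known. In spleen CD8 cells 40 of the 185 rose and 2 fell (4.1% and 4.18% of all tested genes), with a median log2 fold change of 0.58. In spleen CD4 cells 0 rose and 1 fell, and in tumor CD4 and tumor CD8 cells none passed, with medians of 0.23, 0.36 and 0.27. By list in spleen CD8 cells, 10 of 22 polymerase, clamp loader and fork genes rose, 8 of 20 kinetochore and passenger genes, 4 of 20 spindle motor and cytokinesis genes, 4 of 14 histone and chromatin packaging genes, 3 of 17 origin and initiation genes, 3 of 14 nucleotide genes, 3 of 15 mitotic entry and exit regulators, 3 of 16 recombination and checkpoint genes, 2 of 16 genes of the G1 cyclins and pocket proteins, and none of 14 condensin and cohesin genes or 7 inhibitors of cyclin-dependent kinases.

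Chaf1b, a histone chaperone of the fork, read 16.2, 23.1 and 15.5 CPM under vehicle and 49.97, 34.2 and 43.7 CPM under LCL161 (log2 fold change 1.22 ± 0.22 (SE), adjusted p = 0.00356). Rpa2, which coats single-stranded DNA, read 58.97, 73.3 and 68.3 CPM under vehicle and 147, 107 and 158 CPM under LCL161 (log2 fold change 1.04 ± 0.19 (SE), adjusted p = 0.0037). Rfc4, of the clamp loader, read 16.2, 19.3 and 16.7 CPM under vehicle and 45.5, 28.6 and 41.7 CPM under LCL161 (log2 fold change 1.15 ± 0.21 (SE), adjusted p = 0.00421). The 3 genes were higher in every LCL161 library and lowest in replicate 2 among these. Spc24, a kinetochore subunit, rose by 1.45 ± 0.32. Gmnn, which holds Cdt1 in check, rose by 0.96 ± 0.20, Hmgb2, a chromatin protein, by 1.29 ± 0.28, Ckap2, a spindle protein, by 1.74 ± 0.45, Bora, the activator of Aurora A, by 1.36 ± 0.26, and Cdk6, the G1 kinase, by 0.72 ± 0.20.

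Genes known to keep T cells quiescent gave the falls. Of 10 such genes, Tob1 and Tsc1 fell in spleen CD8 cells. Tob1, an inhibitor of T cell proliferation, read 45.1, 37.4 and 45.4 CPM under vehicle and 20.3, 19.7 and 17.96 CPM under LCL161 (log2 fold change -1.14 ± 0.26 (SE), adjusted p = 0.0129). In spleen CD4 cells it read 37.8, 54.8 and 37.2 CPM under vehicle and 13.4, 12.97 and 22.02 CPM under LCL161 (log2 fold change -1.42 ± 0.26 (SE), adjusted p = 0.0271). The LCL161 libraries were below the vehicle libraries in both populations. Tsc1, which restrains the mTOR pathway, changed by -0.68 ± 0.20 in spleen CD8 cells. The other 8 genes did not pass in any of the 4 populations. Between tissues, genes of these lists passed in both directions with vehicle. The inhibitor Cdkn1a (p21) was higher in tumor than in spleen, by 2.38 ± 0.29 in CD4 cells and 1.26 ± 0.28 in CD8 cells, and Cdk6 was higher in tumor CD8 cells by 1.47 ± 0.21. Slfn2, of the quiescence list, was also higher in tumor (0.54 ± 0.14 and 0.90 ± 0.14). Lower in tumor were Foxp1 (-1.24 ± 0.21) and Tsc1 (-0.68 ± 0.20) in CD4 cells, and in CD8 cells Dna2 (-1.74 ± 0.35) among others. Of all tested genes, 9.61% were higher and 6.78% lower in CD4 cells, and 7.95% and 6.86% in CD8 cells.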

How the data were processed

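RNA from 24 sorted samples was sequenced, and the submitters' processing notes name cutadapt, STAR 2.7.3a and the build GRCm38. The authors deposited 1 table of expected counts per gene symbol (52.7% of values above 0 were not whole), and how reads were counted, with which annotation and strand, is not stated there. The expected counts were rounded. Genes with too few counts were left out by filterByExpr (minimum 10), which kept 20174 of 55025. Library totals were scaled by TMM (factors 0.939 to 1.05), and 1 mean per group was fitted over all 24 libraries with edgeR 4.0.16 (robust quasi-likelihood, 16 residual degrees of freedom) in R 4.3.3, with Benjamini-Hochberg adjustment within each of 12 comparisons and a threshold of 0.05. Depth of 15.5 to 25.1 × 1e6 counts leaves the spread between libraries, not counting, as the main error. The fitting script was tested on simulated data for the 4 LCL161 comparisons. It recovered 36 to 42% of 2-fold changes and 71 to 83% of 4-fold changes, 0 of them in the wrong direction. A count of 0 genes can therefore miss changes of 2-fold or less. No pair of replicates agreed within sampling noise.

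The members and gene lists were chosen with earlier results of these data known. Of members past the threshold, the 2 of each role with the smallest adjusted p are given in every library, elsewhere a panel of 10 genes. Between tissues or populations the 5 members with the smallest adjusted p are named, and of other lists up to 3 genes each way. Promoters are those of RefSeq (GRCm38.p6), and exon lengths those of GENCODE. Other settings tried were DESeq2 1.42.0, RLE or no scaling, testing without a filter, a fit of the compared libraries alone, leaving out each library in turn, a replicate block, LCL161 libraries for vehicle libraries, a promoter window without transcribed bases and, chosen after seeing the data, removal of the trend on transcript length.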

Additional observations from a re-analysis of the deposited data

How the results depend on the processing

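In spleen CD8 cells, 19 of the 52 genes passed. Without a filter on low counts 8 did, and leaving out 1 library gave 0 to 25. Over all genes tested, 827 rose in the main fit, 345 without the filter and 70 to 645 with 1 library left out. The count stayed within 1.5 times under RLE scaling (16), no scaling (22), the libraries compared alone (15), DESeq2 (26) and length trend removed (15). Over all genes, 643 of 20174, 975 of 20174, 880 of 17238, 1185 of 16634 and 619 of 20174 rose under these settings, in the same order. For tumor against spleen CD4 cells the count of 2 became 0 with only the libraries compared, 8 with LCL161 libraries, 5 with DESeq2, 4 with the length trend removed and 0 to 4 with 1 library left out. Over all genes, 611 of 17772 were higher with only the libraries compared, 2095 of 20174 with LCL161 libraries, 2234 of 20148 with DESeq2 and 1761 of 20174 with the length trend removed. For tumor against spleen CD8 cells the count of 6 became 22 with only the libraries compared, 0 with LCL161 libraries and 2 to 5 with 1 library left out. Over all genes, 2871 of 17749, 992 of 20174 and 967 to 1182 were higher under these settings, in the same order. Between CD8 and CD4 cells of the spleen the count of 0 became 1 (lower) with only the libraries compared and 4 with LCL161 libraries. Over all genes, 1228 of 17480 were lower with only the libraries compared, and 1603 of 20174 higher with LCL161 libraries. DESeq2 called 2 genes in spleen CD4 and 1 in tumor CD4 cells, where leaving out 1 library gave 0 to 1 in each. No gene that passed changed sign, but with LCL161 libraries the median log2 fold change of the 52 genes went from 0.47 to -0.07 for tumor against spleen CD8 cells and from 0.23 to -0.05 for CD8 against CD4 cells of the tumor. With 1 library left out it reached -0.12 for CD8 against CD4 cells of the spleen (0.07 over all libraries) and -0.07 for the difference of effects in CD4 cells (0.18). The causes were not tested.

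With the replicate number as a block, 15 genes passed in spleen CD8 cells. In comparisons other than LCL161 against vehicle the block was the replicate number within each treatment. With it, 5 genes passed in tumor against spleen CD4 cells. Over all 20174 genes tested, 695 and 1833 were higher in these 2 comparisons. Same-numbered libraries of the same treatment had a median correlation of 0.016 over 36 pairs, and 4 pairs exceeded 0.1. These include all 3 pairs of spleen CD8 with tumor CD8 libraries under LCL161 (0.11, 0.12 and 0.17), and no other pair of groups met this. Libraries with different numbers reached 0.27 within a treatment (2 of 72 pairs over 0.1) and 0.16 between treatments (6 of 96). So numbers may pair those 6 libraries, but these values do not show it. The block changed no other count of genes by over 1.5 times.

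With only the 250 bases before the start, CHR elements stood in 28.6% of mitosis promoters (22.2% of S phase promoters), and E2F, CHR and CCAAT matches in 2.16%, 19.6% and 37.5% of all promoters and in 3.62%, 15.6% and 39.7% of those of tested genes.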
